A study of Homo sapiens with 2 samples.

Results

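The 10 genes SOX9, SOX4, SOX2, KLF4, CD44, CD24, ALDH1A3, ALDH1A1, PROM1 and BMI1, widely used as markers or regulators of stem-like breast cancer cells, were followed in T47D, an established human luminal breast cancer cell line. They were chosen by gene symbol, with earlier results of these data known, from the 25240 genes of the deposited transcript tables. All 10 were listed there. Total RNA had been sequenced from 2 libraries, 1 per group. The shRON cells carried a hairpin against RON, the receptor tyrosine kinase encoded by MST1R, and the shNT cells carried a non-targeting hairpin. Both were transduced, selected in puromycin at 5 ug/mL, kept in it at 1 ug/mL, and grown in high-glucose DMEM with 10% serum. The sources used here do not say whether either culture was a clone or a pool, and the control table's name calls those cells wild type while its label gives the hairpin. The label was followed.

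Stem-like breast cancer cells are usually described by high CD44 with low CD24 on the surface and by high aldehyde dehydrogenase activity. SOX9, SOX4 and SOX2 are transcription factors that bind DNA through an HMG box, KLF4 is a zinc finger factor, and BMI1 is a subunit of Polycomb repressive complex 1. SOX9 is needed for luminal progenitors of the mammary gland, SOX2 and KLF4 are among the factors that reprogram somatic cells to pluripotency, and SOX4 is a target of TGF-beta signalling. CD44 is a hyaluronan receptor whose transcript is alternatively spliced through a block of variable exons between constant ones.

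The libraries held about 11500000 estimated fragments in shRON and 11900000 in shNT. MST1R itself stood at 9.10 FPKM in shRON and 12.1 FPKM in shNT (fragments scaled by transcript length and library size), a ratio of 0.749 with an approximate counting interval of 0.675 to 0.832. All 12 luminal markers checked were measured, with KRT8 at 2634 and 3839 FPKM and GATA3 at 269 and 223 FPKM in shRON and shNT. The luminal marker sum was 7564 FPKM in shRON and 9695 in shNT. Its largest parts were KRT8, KRT19 (2079 and 2719 FPKM) and KRT18 (1113 and 1465 FPKM). Of the 12 luminal markers, 3 were lower in shRON by 1.5-fold or more and 0 higher. These were PGR (35.1 and 76.7 FPKM), CDH1 (100.1 and 163 FPKM) and ESR1 (23.7 and 36.7 FPKM). Among all measured genes, 8.84% were lower and 9.95% higher by that size. At any size, 6 of the 12 were higher in shRON and 6 lower. The 8 immune and 6 endothelial markers stayed under 1 FPKM in both libraries, and PTPRC, PECAM1 and VWF were listed at 0. Of the 10 basal markers, 2 were measured, and their list summed to 14.3 FPKM in shRON and 8.59 in shNT. KRT17, at 5.54 and 0.523 FPKM, reached 1 FPKM in shRON only, and ACTA2 was at 6.14 and 7.25 FPKM. The other 8 stayed under 1 FPKM in both libraries. Among them KRT5 (0.642 and 0.202 FPKM), TP63 (0.698 and 0.125) and VIM (0.509 and 0.0988) were higher in shRON, with counting intervals of the ratio above 1. Of these 8, only KRT14 was lower in shRON, at 0 and 0.0381 FPKM. The 8 fibroblast markers summed to 5.86 FPKM in shRON and 4.14 in shNT, most of it from COL1A1, at 4.27 and 3.95 FPKM. COL3A1, at 1.53 and 0.0103 FPKM, reached 1 FPKM in shRON only, and PDGFRA, PDGFRB and FAP were listed at 0. The part of the basal and fibroblast markers in the results below was not tested. In bulk RNA, more cells with a transcript and more transcript per cell cannot be told apart.

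The sequence shown for CD44 is that of its variable exons v8, v9 and v10, on the plus strand of chromosome 11 (GRCh37, the build the tables use). They are shown because the CD44 transcript with the highest ratio between the libraries carries only these 3 of the 9 variable exons. By their lengths the longer CD44 transcripts hold v8 to v10 as well. They differ from that transcript in exons before v8, which are not shown. Capitals mark the exon and lower case the 10 flanking intron bases on each side, with the splice dinucleotides ag before and gt after each exon. The exons hold 102, 90 and 204 bases, each a whole number of codons, and lie at chr11:35229652-35229753 (v8), chr11:35231512-35231601 (v9) and chr11:35232793-35232996 (v10).
v8: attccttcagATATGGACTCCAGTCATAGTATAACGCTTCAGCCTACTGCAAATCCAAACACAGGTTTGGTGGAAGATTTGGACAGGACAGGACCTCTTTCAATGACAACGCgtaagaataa
v9: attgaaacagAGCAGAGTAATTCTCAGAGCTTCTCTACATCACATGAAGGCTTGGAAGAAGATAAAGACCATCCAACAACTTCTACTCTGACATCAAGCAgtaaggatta
v10: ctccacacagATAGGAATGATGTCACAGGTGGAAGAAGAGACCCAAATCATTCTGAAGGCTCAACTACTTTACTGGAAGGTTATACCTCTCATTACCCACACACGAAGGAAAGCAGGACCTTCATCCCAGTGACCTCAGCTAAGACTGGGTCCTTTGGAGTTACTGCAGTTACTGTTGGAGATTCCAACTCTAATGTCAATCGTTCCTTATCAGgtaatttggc

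Of the 10 genes, 6 were higher in shRON by 1.5-fold or more, 0 were lower by that size, 2 (CD24 and BMI1) differed by less, and 2 (PROM1 and ALDH1A1) were under the filter of 1 FPKM. Ratios are those of FPKM + 1, shRON over shNT, on which low genes differ less than their FPKM do. Among all 12484 measured genes, 9.95% were higher and 8.84% lower by 1.5-fold. At 2-fold, 4 of the 10 were higher (SOX4, SOX9, CD44 and KLF4) and 0 lower, against 3.32% higher and 2.17% lower among all measured genes. KLF4 and CD44 were near that line, with counting intervals of the log2 ratio of 0.87 to 1.23 and 0.94 to 1.17. With a pseudocount of 5 both were under it (0.80 and 0.85), as was CD44 with the median of the 50 nearest genes subtracted (0.94). The median log2 ratio of the 8 measured members was 0.90, beside 0.04 for all measured genes. Because the 10 genes were chosen with earlier results of these data known, these contrasts with all genes are a description only. SOX2 reached 1 FPKM through the shRON library alone, so its place among the measured genes and its direction are not independent. SOX2 was under 1.5-fold with the median of all genes subtracted (log2 ratio 0.57), with the trend of ratio on level removed (0.53) and with a pseudocount of 5 (0.23), and ALDH1A3 was under it with a pseudocount of 5 (0.37). The counting intervals of the log2 ratio were 0.24 to 1.06 for SOX2 and 0.48 to 1.04 for ALDH1A3, and both reached under 1.5-fold. Each group is a single library without replicates, so the ratios describe these 2 libraries and carry no p-value.

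**Figure D1:**
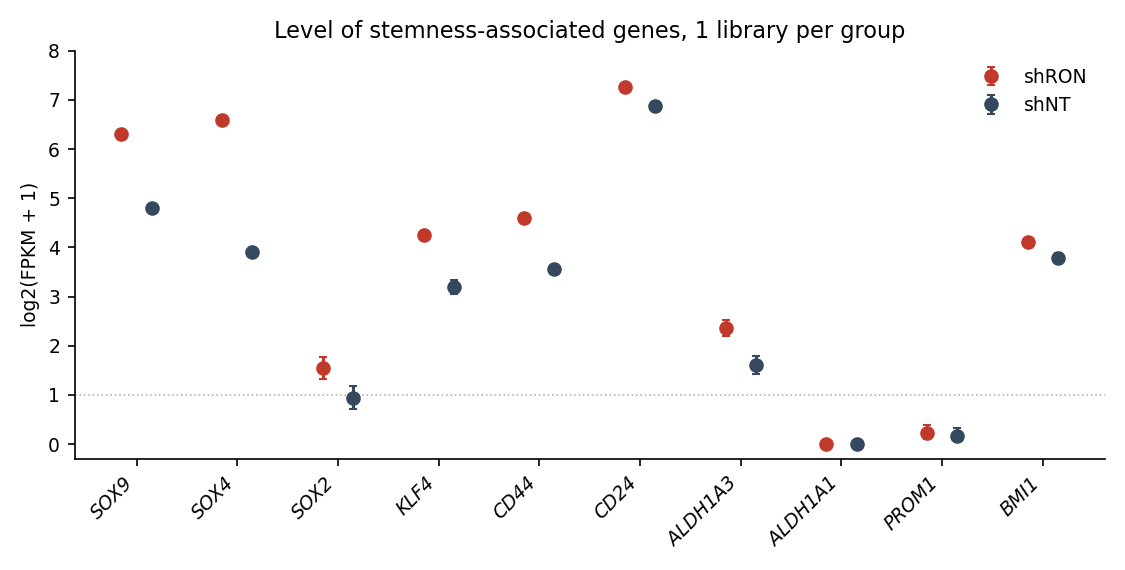
Level of each of the 10 genes as log2(FPKM + 1) in the shRON library (red, left) and the shNT library (dark, right), with bars for approximate 95% counting intervals and a dotted line at 1 FPKM. SOX4 shows the widest gap (95.4 against 14.0 FPKM), CD24 is highest in both libraries, and ALDH1A1 is listed at 0 in both.

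Among the SOX factors, SOX4 differed most. SOX4 (chromosome 6, 21593972 to 21598850) stood at 95.4 FPKM in shRON, from an estimated 6556 fragments, and at 14.0 FPKM in shNT, from 996. The FPKM ratio was 6.80 (approximate counting interval 6.36 to 7.28) and the log2 ratio 2.68, a size that 0.192% of measured genes exceeded. SOX9 (chromosome 17, 70117161 to 70122561) stood at 78.6 FPKM in shRON and 26.9 FPKM in shNT, an FPKM ratio of 2.92 (2.76 to 3.09) and a log2 ratio of 1.51. The order of the pair was reversed between the libraries, since SOX4 was at 1.21 times the FPKM of SOX9 in shRON and at 0.521 times in shNT. SOX2 (chromosome 3, 181429722 to 181432224) was low, at 1.92 FPKM in shRON and 0.912 FPKM in shNT, from about 70 and 35 fragments, with an FPKM ratio of 2.11 (1.39 to 3.26). SOX2 lies within the noncoding gene SOX2OT, which was at 0.112 FPKM in shRON and 0.0522 FPKM in shNT, and without a stated strand setting reads of overlapping genes cannot be told apart.

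The regions around SOX4 and SOX9 did not share their ratios. The median log2 ratio of the 50 measured genes nearest to SOX4 on its chromosome was 0.08, and SOX4 relative to them was at 2.61. Around SOX9 the regional median was -0.28, and SOX9 relative to it was at 1.80. Of the 19 SOX genes listed, 7 were measured, of which 3 were higher and 2 lower by 1.5-fold. The 3 higher ones were SOX4, SOX9 and SOX2 themselves. Among all measured genes, 9.95% were higher and 8.84% lower by that size. SOX18, a factor of endothelial development, was at 0.0907 FPKM in shRON and 1.35 FPKM in shNT (log2 ratio -1.11), and SOX15 at 0.435 and 1.46 FPKM (-0.78). Both reached 1 FPKM only in shNT.

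KLF4 (chromosome 9, 110247133 to 110252047) was at 18.0 FPKM in shRON and 8.17 FPKM in shNT, from about 746 and 343 fragments, an FPKM ratio of 2.20 (1.93 to 2.51) and a log2 ratio of 1.05. The genes near it had a regional median of -0.18. Of the 17 KLF genes listed, KLF4 included, 11 were measured, 4 were higher by 1.5-fold and 0 lower. Beside this, 9.95% of all measured genes were higher and 8.84% lower. The median log2 ratio of the 11 was 0.44. KLF5, a paralog of KLF4 that also acts in epithelial cells, was at 6.28 FPKM in shRON and 1.02 FPKM in shNT (log2 ratio 1.85). KLF3 was at 9.09 and 4.10 FPKM (0.98) and KLF6 at 19.1 and 11 FPKM (0.75) in shRON and shNT. Of the 11, 9 had a log2 ratio above 0 and 2 below. These 2 were KLF9, at 0.666 FPKM in shRON and 1.46 FPKM in shNT (-0.56), and KLF16, at 7.84 and 11.3 FPKM (-0.47). KLF9 reached 1 FPKM in shNT only, so its place among the measured genes and its direction are not independent. Of the other pluripotency factors, 2 of 12 were measured and neither passed 1.5-fold: MYC was at 28.8 FPKM in shRON and 24.1 FPKM in shNT (0.25), and LIN28, an RNA-binding protein gene, at 3.93 and 4.14 FPKM (-0.06). NANOG was listed at 0 in both libraries and POU5F1 was at 0.0806 and 0.110 FPKM.

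**Figure D2:**
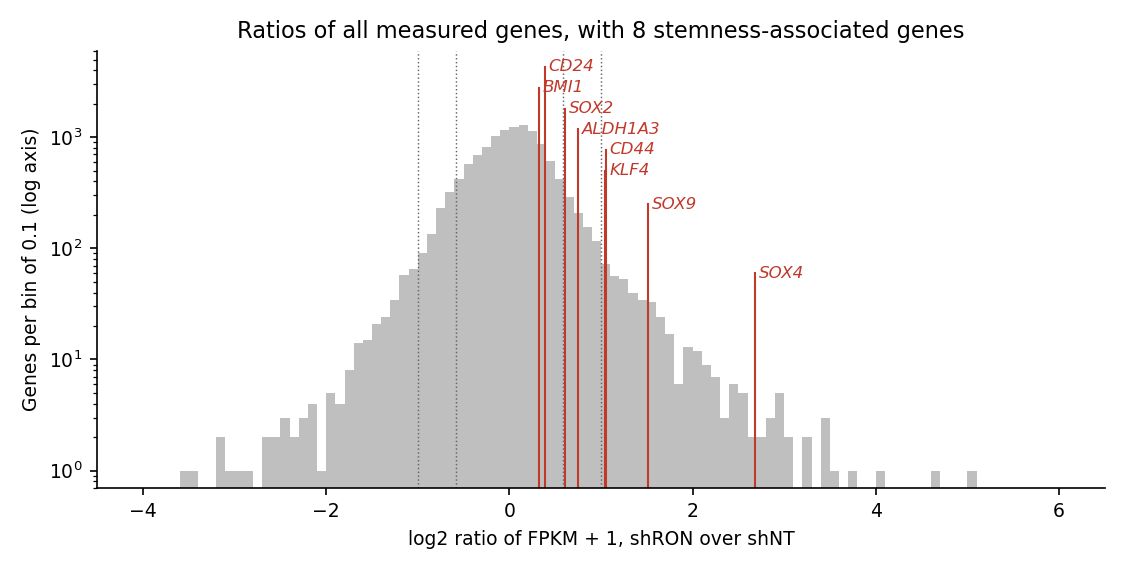
Distribution of the log2 ratio of FPKM + 1, shRON over shNT, over 12484 measured genes in bins of 0.1 with a log count axis, and red lines at the 8 measured stemness-associated genes. Dotted lines mark 1.5-fold and 2-fold in each direction. All 8 lie above 0, between 0.32 (BMI1) and 2.68 (SOX4).

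CD44 was higher in shRON as a gene, and the split among its transcripts differed as well. Summed over 5 transcripts, CD44 (chromosome 11, 35160417 to 35253949) was at 23.4 FPKM in shRON and 10.7 FPKM in shNT, an FPKM ratio of 2.18 (2.01 to 2.37) and a log2 ratio of 1.06, with a regional median of 0.12. Of the 5 transcripts, 3 were longer than NM_001001391.1, which holds no variable exon by its length of 4589 bases. The excess was 1143 bases in NM_000610.3, 1014 in NM_001001389.1 and 396 in NM_001001390.1, which equal the annotated runs v2 to v10, v3 to v10 and v8 to v10. By length alone v2 and v6 cannot be told apart, since both hold 129 bases. The exons printed above, v8 to v10, are common to all 3.

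NM_001001390.1, with v8 to v10 alone, was at 12.6 FPKM in shRON and 2.10 FPKM in shNT. It made up 53.9% of the CD44 sum in shRON and 19.6% in shNT, and its FPKM ratio was 6.0 (5.06 to 7.16). NM_001001389.1, with v3 to v10, was at 9.23 FPKM in shRON and 4.68 FPKM in shNT, which was 39.5% and 43.7% of the sum. Its FPKM ratio was 1.97 (1.74 to 2.23). NM_000610.3, with all 9 variable exons, went the other way, at 1.00 FPKM in shRON and 3.15 FPKM in shNT, or 4.28% and 29.4% of the sum. Its FPKM ratio was 0.317 (0.245 to 0.407).

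The 3 transcripts with variable exons together made up 97.7% of the CD44 sum in shRON and 92.7% in shNT. The standard form without them, NM_001001391.1, was at 0.394 FPKM in shRON and 0.518 FPKM in shNT, and the shortest transcript, NM_001001392.1, at 0.136 and 0.268 FPKM. Those last values rest on about 26 and 35 fragments and on 8 and 16 fragments, and the intervals of both FPKM ratios include 1 (0.441 to 1.30 and 0.188 to 1.26). The transcripts share most of their bases, and the fragment intervals do not cover how the authors' estimate divided shared reads among them. The noncoding gene LOC100507164 overlaps CD44 in the tables and was at 0.142 FPKM in shRON and 0.0643 FPKM in shNT.

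**Figure D3:**
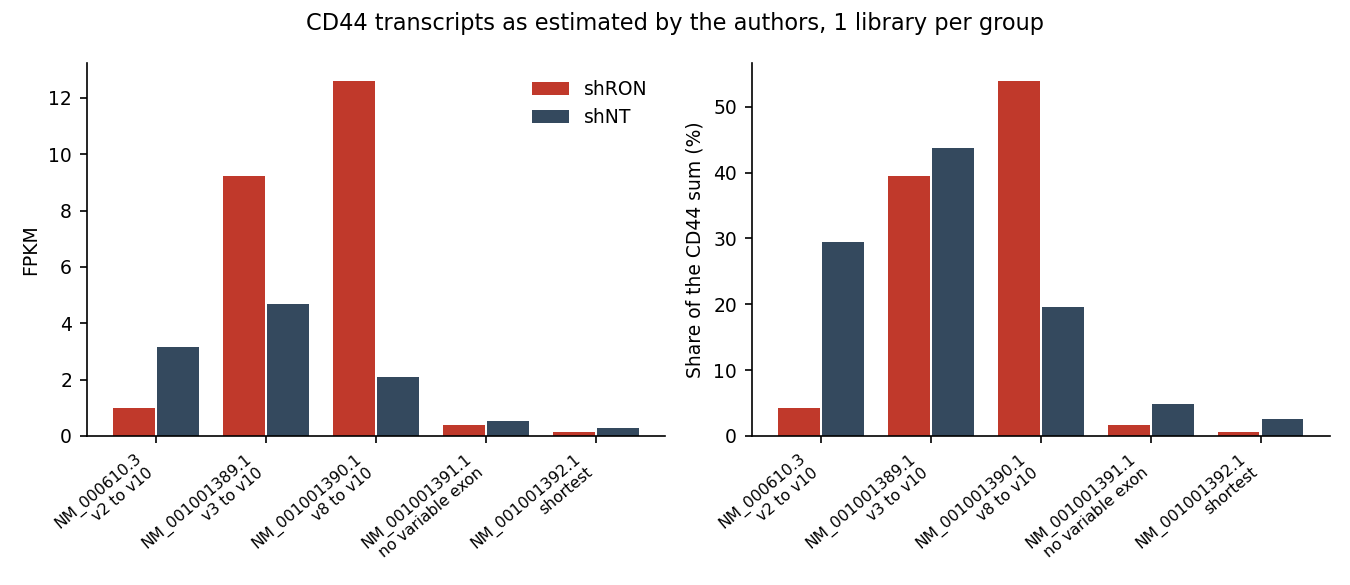
FPKM (left) and share of the CD44 sum in per cent (right) of the 5 CD44 transcripts, longest first, in the shRON library (red) and the shNT library (dark), with the run of variable exons that each length matches. The v8 to v10 transcript is the largest in shRON (53.9%), while the v3 to v10 transcript is the largest in shNT (43.7%).

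Genes known to regulate CD44 splicing were looked at next. Of 15 listed, all were measured, 1 was higher by 1.5-fold and 0 were lower, beside 9.95% higher and 8.84% lower among all measured genes, and the median log2 ratio was 0.04. The epithelial splicing regulators ESRP1 and ESRP2, which favour inclusion of CD44 variable exons, were at 62.2 and 38.6 FPKM in shRON and at 49.5 and 48.7 FPKM in shNT (log2 ratios 0.32 and -0.33). QKI, an RNA-binding protein gene, was at 5.60 FPKM in shRON and 3.16 FPKM in shNT (0.67). The hyaluronan synthase genes HAS1 and HAS3 stayed at or under 0.299 FPKM in both libraries, and HAS2 was listed at 0. Of the 23 genes of hyaluronan turnover and CD44 partners, 15 were measured, 2 were higher, 2 lower and 11 neither, with a median of -0.07. LGALS9, which encodes the CD44-binding lectin galectin-9, was at 24.5 FPKM in shRON and 2.47 FPKM in shNT (2.88), although near-identical copies make its share of reads uncertain. ADAM17, a protease gene, was at 12.0 and 7.11 FPKM (0.68). CD74, the invariant chain and a CD44-associated receptor, was at 8.57 FPKM in shRON and 27.1 FPKM in shNT (-1.55), and HMMR, another hyaluronan receptor gene, at 9.54 and 15.8 FPKM (-0.68).

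CD24, a glycosylated surface protein, was the most abundant of the 10 genes in both libraries, at 153 FPKM in shRON and 117 FPKM in shNT. The FPKM ratio was 1.31 (1.25 to 1.37) and the log2 ratio 0.39, under 1.5-fold. The ratio of CD44 to CD24 in FPKM was 0.153 in shRON and 0.0919 in shNT, so CD24 exceeded CD44 in both. This is a ratio of bulk RNA levels, and these libraries do not measure either protein on the cell surface. The tables place CD24 on chromosome Y (21152526 to 21154705 in hg19), whereas the RefSeq list for GRCh38.p14 has it on chromosome 6. The sources used here do not say how reads from related copies were assigned, so its level is uncertain.

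PROM1, which encodes the surface antigen CD133, stayed at 0.168 FPKM in shRON and 0.127 FPKM in shNT over 7 transcripts, from about 10 and 7 fragments. The interval of its FPKM ratio, 0.454 to 4.09, includes 1, so no difference was detectable at this depth. Of that sum, 99.0% in shRON and 97.7% in shNT was assigned to 1 transcript, NM_001145852.1. PROM2, the PROM1 paralog, was far higher than PROM1, at 15.7 FPKM in shRON and 27.1 FPKM in shNT (log2 ratio -0.75). Of the 17 other surface genes of mammary stem and progenitor cells, 9 were measured, 2 were higher, 2 lower and 5 neither. The shares among all measured genes were 9.95% higher and 8.84% lower. CXCR4, a chemokine receptor gene, was at 19.5 FPKM in shRON and 0.840 FPKM in shNT (3.47), and reached 1 FPKM in shRON only. ITGA6, the alpha-6 integrin gene, was at 6.31 and 3.85 FPKM (0.59). PROCR, the protein C receptor gene, was at 4.01 FPKM in shRON and 8.45 FPKM in shNT (-0.92), and LGR5 and KIT were listed at 0. Of the 9 measured surface genes, 5 had a log2 ratio above 0 and 4 below, with a median of 0.05. The place of CXCR4 among them and its direction are not independent.

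Of the aldehyde dehydrogenase genes behind the ALDH activity assay, ALDH1A3 was measured and ALDH1A1 was not. ALDH1A3 encodes an enzyme that makes retinoic acid from retinaldehyde and lies on chromosome 15 (101420009 to 101456831). ALDH1A3 was at 4.14 FPKM in shRON and 2.06 FPKM in shNT, from about 214 and 107 fragments, an FPKM ratio of 2.01 (1.59 to 2.57) and a log2 ratio of 0.75. A noncoding gene that overlaps it, LOC100507452, was at 2.29 FPKM in shRON and 0.962 FPKM in shNT, and reads of the overlap cannot be told apart. ALDH1A1 was listed at 0 in both libraries. Of the 19 ALDH genes, 14 were measured, 3 (ALDH1A3 included) were higher and 1 lower by 1.5-fold, with a median of -0.12. The shares among all measured genes were 9.95% higher and 8.84% lower. The mitochondrial acetaldehyde dehydrogenase gene ALDH2 was at 24.9 FPKM in shRON and 14.0 FPKM in shNT (0.78), ALDH1L2 at 2.54 and 1.08 FPKM (0.77), and ALDH3B1 at 1.15 and 5.19 FPKM (-1.52).

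In the retinoic acid pathway that ALDH1A3 serves, 8 of 18 genes were measured, 2 were higher and 2 lower. The shares among all measured genes were 9.95% higher and 8.84% lower. RDH10, which makes retinaldehyde from retinol, was at 15.4 FPKM in shRON and 6.36 FPKM in shNT (1.16), and DHRS3, which reduces retinaldehyde back, at 20.0 and 8.99 FPKM (1.07). The retinoic acid carrier gene CRABP2 was at 549 FPKM in shRON and 1064 FPKM in shNT (-0.95), and its relative CRABP1 at 0.0972 and 3.13 FPKM (-1.91). CRABP1 reached 1 FPKM in shNT only, so its place among the measured genes and its direction are not independent. Both retinol-retinaldehyde enzymes were thus higher in shRON and both carriers lower. The receptor genes RARA and RARG were at 30.6 and 24.6 FPKM in shRON and at 36.3 and 25 FPKM in shNT. The retinoic acid-degrading gene CYP26A1 was at 0.15 FPKM in shRON and listed at 0 in shNT.

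**Figure D4:**
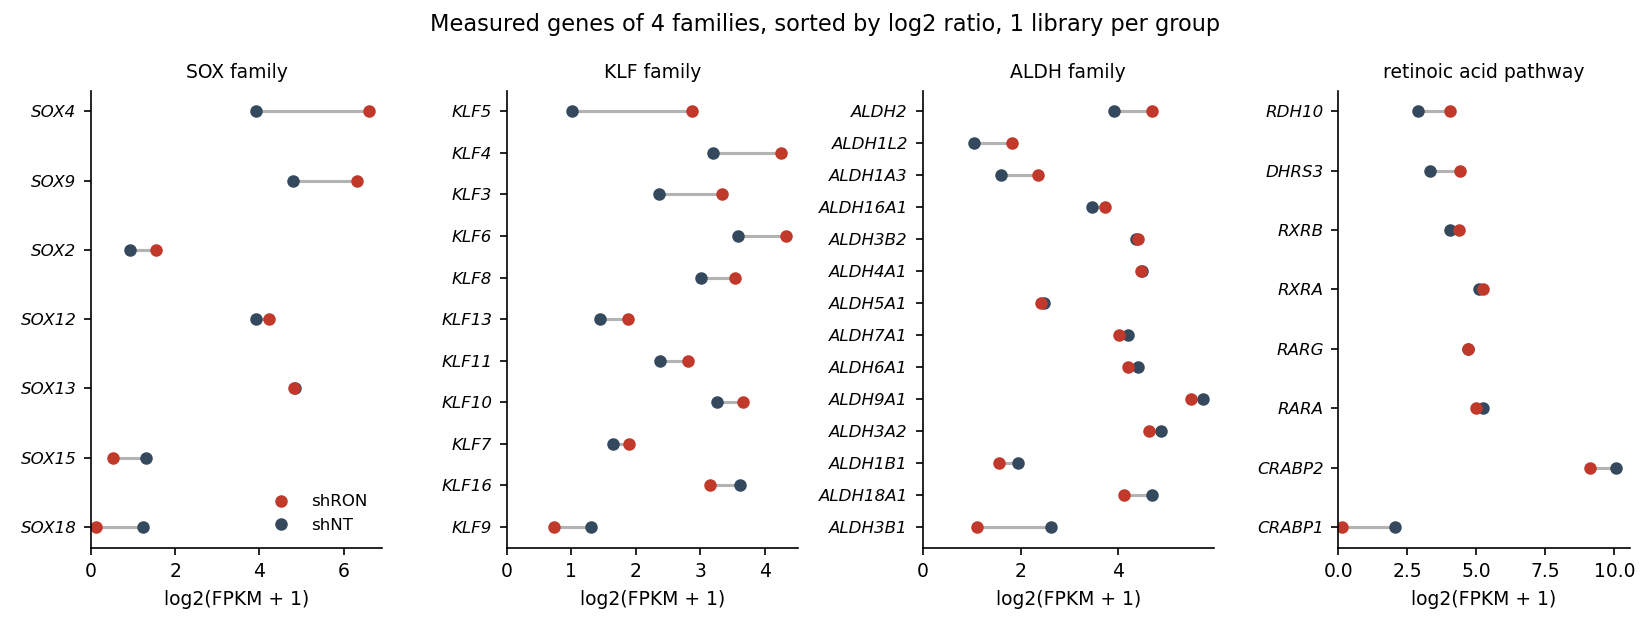
Level as log2(FPKM + 1) of the measured SOX, KLF, ALDH and retinoic acid pathway genes in the shRON library (red) and the shNT library (dark), each sorted by log2 ratio with the highest on top. A grey line joins the 2 values of a gene. SOX4, KLF5, ALDH2 and RDH10 lead the panels, and SOX18, KLF9, ALDH3B1 and CRABP1 stand at the bottom.

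BMI1 (chromosome 10, 22610006 to 22620414) was at 16.2 FPKM in shRON and 12.8 FPKM in shNT, from about 866 and 696 fragments. Its FPKM ratio of 1.27 (1.15 to 1.40) and log2 ratio of 0.32 were under 1.5-fold, and 23.2% of measured genes had a higher ratio. Of the 24 Polycomb genes listed, BMI1 included, 23 were measured, 2 were higher, 0 lower and 21 neither, with a median of 0.07. The shares among all measured genes were 9.95% higher and 8.84% lower. The catalytic partners of BMI1 differed by less than 1.5-fold, RING1 at 23.5 FPKM in shRON and 18.2 FPKM in shNT (0.35) and RNF2 at 6.07 and 6.38 FPKM (-0.06). PHC2 was at 21.1 FPKM in shRON and 10.9 FPKM in shNT (0.90) and PCGF3 at 20.9 and 12.5 FPKM (0.70). PHC2 encodes a Polyhomeotic subunit and PCGF3 a paralog of BMI1. CDKN2A, a classical target of BMI1 repression, was at 20.8 FPKM in shRON and 23.5 FPKM in shNT (-0.17), and CDKN2B at 4.92 and 3.79 FPKM (0.30).

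The level order of the 10 genes was compared within each library, per length in FPKM. In shRON it ran CD24, SOX4, SOX9, CD44, KLF4, BMI1, ALDH1A3, SOX2, PROM1 and ALDH1A1, and the intervals of KLF4 (16.7 to 19.3 FPKM) and BMI1 (15.1 to 17.3 FPKM) overlapped. In shNT it ran CD24, SOX9, SOX4, BMI1, CD44, KLF4, ALDH1A3, SOX2, PROM1 and ALDH1A1, and the intervals of SOX4 (13.2 to 14.9 FPKM) and BMI1 (11.8 to 13.7 FPKM) overlapped. These intervals cover counting error alone. BMI1 thus stood above CD44 and KLF4 in shNT and below CD44 in shRON.

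The promoters of the 3 genes that were higher by 2-fold and have an entry in the RefSeq promoter table (GRCh38.p14) were read for 4 short motifs, and 9 of the 10 genes have an entry. The 250 bases before each start are shown because all 3 genes were higher in shRON, in lower case with motif matches on either strand in capitals. The starts are those of GRCh38.p14 and were not matched to the hg19 starts of the transcripts measured here. The motifs were the GC box GGGCGG that SP and KLF factors can bind, the CCAAT box CCAAT, the letters ACAAAG of TCF and SOX sites, and the E-box CACGTG. The windows were chr6:21593501-21593750 on the plus strand (SOX4), chr9:107489770-107490019 on the minus strand (KLF4) and chr11:35138921-35139170 on the plus strand (CD44).
SOX4: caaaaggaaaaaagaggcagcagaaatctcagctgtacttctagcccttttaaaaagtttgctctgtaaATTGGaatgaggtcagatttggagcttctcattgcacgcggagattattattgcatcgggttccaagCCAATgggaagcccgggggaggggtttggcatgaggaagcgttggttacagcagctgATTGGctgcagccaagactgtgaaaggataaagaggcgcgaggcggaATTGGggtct
KLF4: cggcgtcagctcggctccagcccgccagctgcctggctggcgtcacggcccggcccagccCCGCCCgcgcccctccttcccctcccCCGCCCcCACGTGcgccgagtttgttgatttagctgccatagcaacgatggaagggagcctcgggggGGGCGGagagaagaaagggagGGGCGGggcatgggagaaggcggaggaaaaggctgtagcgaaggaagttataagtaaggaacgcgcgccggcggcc
CD44: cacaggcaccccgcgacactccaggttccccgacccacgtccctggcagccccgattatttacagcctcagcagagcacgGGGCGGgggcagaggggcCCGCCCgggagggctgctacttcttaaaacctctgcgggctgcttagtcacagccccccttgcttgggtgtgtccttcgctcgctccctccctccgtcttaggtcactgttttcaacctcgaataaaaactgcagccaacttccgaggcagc

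No motif was common to all 3 promoters. SOX4 held 4 CCAAT boxes and no GC box, and its GC content was 48.8%, against a median of 58% over all windows. KLF4 held 4 GC boxes and 1 E-box with a GC content of 69.2%, and CD44 held 2 GC boxes with 62.4%. Of the 35116 windows of this length in the table, 42.6% held the GC box, 32.0% the CCAAT box, 13.7% ACAAAG and 6.34% the E-box. The matches are a description of letters and say nothing of binding.

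The genes closest to SOX9, KLF4 and CD44 in both libraries were sought by the distance of log2(FPKM + 1) over the 2 libraries. For SOX9 they were IFIT2 (75.7 FPKM in shRON and 27.9 in shNT), MYD88 (80.3 and 28.5) and IFIH1 (72.7 and 23.9), and 20 genes lay within 0.5. For KLF4 they were ZFYVE26, KIAA1147 and PIK3R3, among 256 genes within 0.5. For CD44 they were CABLES1, HOMER3 and TEAD2, among 199. With 2 libraries such nearness is shared by many genes.

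Notch and hedgehog signalling are known to act on several of these factors. Of 22 Notch genes, 13 were measured, 1 was higher, 4 lower and 8 neither, with a median of -0.01, beside 9.95% higher and 8.84% lower among all measured genes. MAML2, a Notch coactivator gene, was at 1.20 FPKM in shRON and 0.296 FPKM in shNT (0.76) and reached 1 FPKM in shRON only. The ligand gene DLL1 was at 0.304 and 1.60 FPKM (-1.0) and reached 1 FPKM in shNT only. The feedback gene NRARP was at 9.64 FPKM in shRON and 18.4 FPKM in shNT (-0.87), the ligand gene JAG2 at 3.60 and 6.22 FPKM (-0.65) and the glycosyltransferase gene LFNG at 5.42 and 8.97 FPKM (-0.64). Of 11 hedgehog genes, 3 were measured and 1 was higher, SMO, the signal transducer, at 5.63 FPKM in shRON and 3.06 FPKM in shNT (0.71). GLI1, a target of the pathway, stayed at 0.0674 and 0.0340 FPKM.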

How the data were processed

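RNA was measured in 2 T47D libraries, grouped by the treatment label. The deposited tables have the Cufflinks layout with 37839 RefSeq transcripts, per the file headers, on hg19, per the submitters' processing notes, which also name DESeq without a role. The sources used here do not give the aligner or the Cufflinks version. The FPKM values and the coverage, a mean read depth per base, are as the authors deposited them. The tables were joined by transcript ID and FPKM was summed per gene. The filter kept genes that reached 1 FPKM in either library, after 23 small RNA genes were left out. Ratios are log2 of FPKM + 1, shRON over shNT, and sizes of 1.5-fold and 2-fold were counted. Fragments were estimated as coverage times length over the median bases of 1 read pair, 241 in shRON and 244 in shNT, taken from low values between 150 and 325 bases. Intervals are 95% exact ones on these estimates (Clopper-Pearson for ratios, Poisson for levels), so they approximate counting error and nothing else. Regional medians use the 50 nearest measured genes. The calculations were tested on simulated data. The simulated control levels did not go as low as those of SOX2 and ALDH1A3, so that test does not cover such low genes. Python 3.11.15, SciPy 1.17.1 and statsmodels 0.14.6 were used.

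The 10 genes and the lists were chosen with earlier results of these data known. Named genes are the 10 themselves, up to 4 genes per direction past 1.5-fold in each list, direct partners, and the 3 genes nearest in level. MST1R, MYC, LIN28, KLF9, KLF16, RARA, RARG, CDKN2A, CDKN2B, several marker genes and genes at or near 0 lie outside this rule. They were named after their values were seen. A planned comparison of proteins was not made, because no protein table was used here.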

Additional observations from a re-analysis of the deposited data

How the results depend on the processing

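No log2 ratio of the 8 measured genes changed sign under any alternative in which it had a value. With a pseudocount of 5 the log2 ratios were 1.39 for SOX9, 2.40 for SOX4, 0.23 for SOX2, 0.80 for KLF4, 0.85 for CD44 and 0.37 for ALDH1A3, as a larger pseudocount shrinks ratios of low genes, and 4 of the 10 genes, without SOX2 and ALDH1A3, were higher by 1.5-fold, in place of 6. That count was also 4 at a filter of 5 FPKM, which SOX2 and ALDH1A3 do not reach, and 5, without SOX2, with the trend removed or the median of all genes subtracted. With the regional median subtracted the log2 ratios were 1.80 for SOX9, 1.23 for KLF4 and 0.94 for CD44, and CD24 had no regional value because too few measured genes share its listed chromosome. The CD44 log2 ratio was 2.13 with the transcript of the highest summed FPKM only, the v8 to v10 form, which is the most abundant in shRON but not in shNT, and that of CD24 was 0.51 with the trend removed (cause not tested). Among all genes, 518 were higher and 465 lower by 1.5-fold with a pseudocount of 5, and 145 and 84 by 2-fold. With a pseudocount of 0.1, 696 were higher and 490 lower by 2-fold. At 5 FPKM or more, 798 were higher by 1.5-fold and 269 by 2-fold, from fewer genes. Shares of CD44 transcripts from coverage in place of FPKM moved by at most 0.000114 percentage points, as both columns come from the same estimate. The planned protein comparison was not run. No replicate could be left out, and no paired analysis was possible because each group has 1 library. Depth limits ALDH1A1, PROM1 and SOX2, with 70 estimated fragments or fewer in each library.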
